A study of Mus musculus with 20 samples.

Results

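The genes described here encode 9 liver-secreted or liver-shed metabolic hormones, carriers and enzymes that have been studied in obesity: Ahsg, Fetub, Angptl8, Gdf15, Inhbe, Lect2, Rbp4, Selenop and Dpp4. They were chosen by symbol, as liver-secreted metabolic factors other than Fgf21 and Angptl4. No value measured in these samples entered that rule, but earlier results of these data were known when the members were chosen. All 9 were found among the 34933 named genes of the expression tables, and all 9 were among the 12789 genes that passed the low-count filter. Livers of wild-type mice with diet-induced obesity were profiled by sequencing of poly(A) RNA. The mice received vehicle, the statin rosuvastatin, geranylgeraniol (GGOH), or rosuvastatin together with GGOH (the combination), with 5 mice in each of the 4 groups and 1 library per mouse. Every group was obese, so the values below compare treatments within obesity and not obese with lean mice. The labels used here give no dose, duration, age, sex or batch.

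Hepatokines are proteins that the liver releases into the blood and that act on other organs, such as muscle, fat, pancreas or brain. Several of them reach higher plasma levels in obesity and fatty liver, and some are known to dampen insulin signalling, others to control the lipases that clear triglycerides or to lower food intake. Rosuvastatin inhibits HMG-CoA reductase, the enzyme that makes mevalonate, and GGOH is an isoprenoid alcohol that cells can turn into geranylgeranyl pyrophosphate, a product further down the same pathway. The comparisons address how hepatokine RNA levels differed under the statin, GGOH or both.

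Hepatokine RNA spanned more than 3 orders of magnitude in these livers, and no member passed the test in any of the 8 comparisons made. Levels are given first in TPM, a share of the library's transcripts that is scaled for transcript length, so that genes can be set beside each other. Selenop, which encodes the plasma selenium carrier, had the highest mean over the 20 mice, at 12190 ± 2437 TPM (SD, n = 20). Next came Rbp4, the plasma retinol carrier, at 4158 ± 716 TPM, and Ahsg, encoding fetuin-A, at 3861 ± 1870 TPM. Lect2 stood at 295 ± 68.4 TPM and Fetub, encoding fetuin-B, at 138 ± 56.9 TPM. Angptl8 followed at 43.2 ± 15.3 TPM, Dpp4 at 20.7 ± 4.79 TPM, Inhbe at 19.4 ± 5.90 TPM and Gdf15 at 4.61 ± 2.69 TPM. Together the members took between 1.57 and 2.63% of all TPM in a liver.

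That order held in nearly every mouse. Selenop was above Rbp4 in 20 of 20 mice, Rbp4 above Ahsg in 18, Ahsg above Lect2 in 20, Lect2 above Fetub in 18, Fetub above Angptl8 in 20, Angptl8 above Dpp4 in 19 and Inhbe above Gdf15 in 20. Dpp4 and Inhbe were not separated: Dpp4 was the higher in 11 of 20 mice. The GENCODE model of Inhbe is 1 transcript of 5319 bases, which starts 2563 bases before the RefSeq start, so its TPM depends on which model the authors used, and that is not given in the sources used here.

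**Figure D1:**
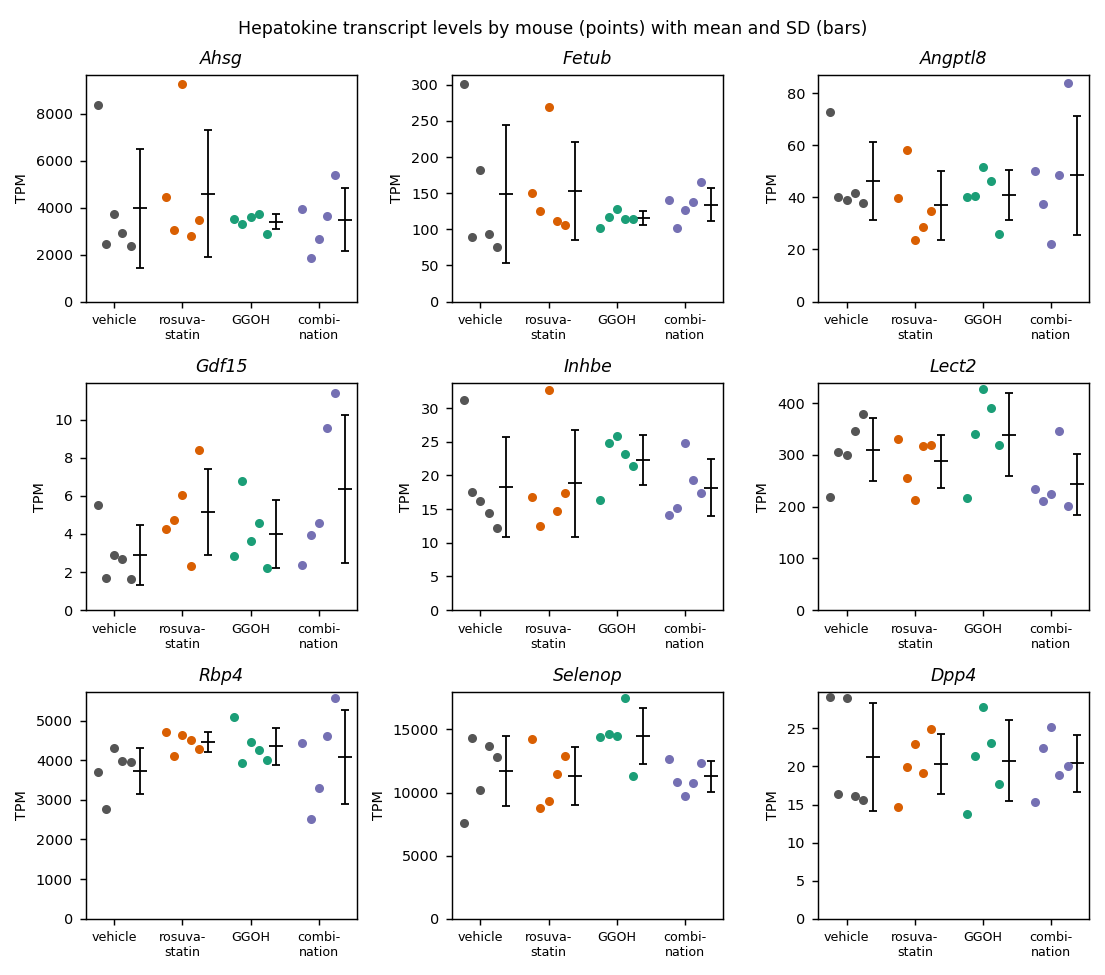
TPM of each of the 9 hepatokine genes (1 panel per gene, linear axes from 0) in each of the 20 mice, by treatment group. Points are mice and bars are group means. The 4 groups overlap in every panel, and vehicle mouse 1 and rosuvastatin mouse 3 stand far above the rest of their groups for Ahsg.

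Libraries held between 8548120 and 18373913 estimated counts (median 15697884). Mitochondrial genes took 27.9% of counts in combination mouse 2 and 29.2% in combination mouse 3, against at most 17.1% in the other 18. Vehicle mouse 1 and rosuvastatin mouse 3 also stood apart, with the highest Ahsg and Inhbe TPM of all 20 mice. They had the lowest Selenop and Lect2 in CPM, which here are counts scaled for library size and a TMM factor between libraries, the scale of the tests. Not all of this held on the other scale. In CPM Inhbe of vehicle mouse 1 (111 CPM) was below vehicle mouse 2 (126 CPM). In TPM rosuvastatin mouse 3 was above rosuvastatin mouse 2 for Selenop (9332 against 8754 TPM). For Lect2 it was above combination mouse 5 (213 against 201 TPM). Of 10 hepatocyte markers, 9 were matched, and their summed level lay between 27824 and 78263 TPM. All 6 adipocyte markers were matched and their summed level ran from 23.2 to 120.4 TPM, with group medians from 55.1 to 58.9 TPM; the fat hormone gene Lep, 1 of the 6, was at 0 in every library. The part of such other cells in the hepatokine values was not tested. In bulk liver, fewer cells of a type and less RNA per cell cannot be told apart. The labels number the samples and say no more of how they were taken, so the p-values below measure only the spread between these samples.

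Comparisons used the edgeR quasi-likelihood test over all 12789 genes with Benjamini-Hochberg adjustment, and a gene was called at an adjusted p under 0.05. For rosuvastatin against vehicle 0 of 9 members were called, where 0% of all genes were. The count was also 0 of 9 for GGOH against vehicle, for the combination against each of the other 3 groups, for the interaction of the compounds and for the statin averaged over GGOH, and 0% of all genes were called in each of these. For GGOH averaged over the statin it was 0 of 9, where 0.00782% of all genes were called (1 gene, the cytochrome P450 Cyp2b10, whose reads may be divided with close copies). DESeq2 also called 0 of 9 members in each comparison, and at most 14 genes of all, for the statin averaged over GGOH. The limma fits on TPM called 0 of 9 members and at most 1 gene of all in each comparison. At an unadjusted p under 0.05 edgeR listed Gdf15 in the combination against vehicle, where 5.5% of all genes were listed, and Gdf15 and Lect2 for the statin averaged over GGOH, where 14.4% were. In the other 6 comparisons it listed 0 of 9. The share of all genes so listed was 3.69% for rosuvastatin against vehicle, 2.86% for GGOH against vehicle, 1.69% for the combination against rosuvastatin, 14% for the combination against GGOH, 2.89% for the interaction and 1.7% for GGOH averaged over the statin. No member had groups of 5 mice that did not overlap in TPM in any of the 5 pairwise comparisons, where 0.344% (rosuvastatin against vehicle), 0.79% (GGOH against vehicle), 0.235% (combination against rosuvastatin), 0.227% (combination against vehicle) and 1.46% (combination against GGOH) of all genes had such groups.

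The median fitted log2 difference over the 9 members lay between -0.16, for the combination against GGOH, and 0.02, for GGOH averaged over the statin. The median over all genes tested lay between -0.02 and 0.02 in the same comparisons. In the combination against vehicle 8 members were lower and 1, Gdf15, was higher. The comparisons share groups of mice, so their values are not independent of each other.

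**Figure D2:**
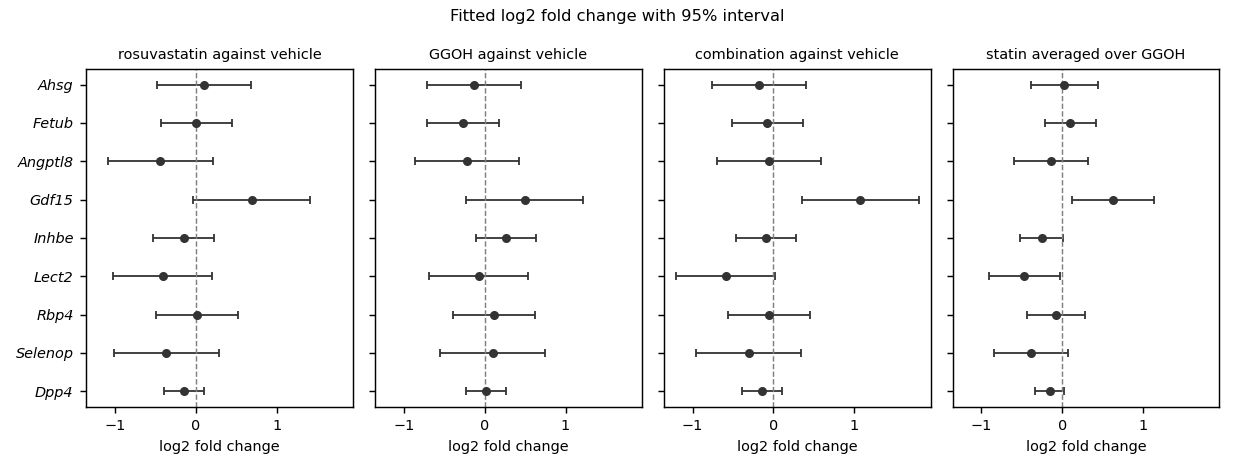
Fitted log2 fold change of each hepatokine gene with its 95% interval, from the edgeR fit over 20 libraries. The panels show rosuvastatin, GGOH and the combination, each against vehicle, and the statin averaged over GGOH. The interval of Gdf15 lies above 0 in the last 2 of these panels. That of Lect2 lies below 0 for the statin averaged over GGOH, and no adjusted p was under 0.05.

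Gdf15 encodes a stress-induced cytokine of the TGF-beta family that acts on a receptor in the hindbrain and lowers food intake. In vehicle mice 1 to 5 its level was 5.51, 1.69, 2.88, 2.68 and 1.63 TPM. With rosuvastatin it was 4.28, 4.72, 6.07, 2.33 and 8.43 TPM, and with GGOH 2.83, 6.79, 3.63, 4.57 and 2.23 TPM. In the combination it was 2.39, 3.96, 4.56, 9.54 and 11.4 TPM. Combination mice 4 and 5 were the highest of all 20. The 3 other combination mice lay inside the range of the vehicle mice in TPM, so the groups overlapped. In CPM only combination mouse 1 (3.52 CPM) lay inside it. Combination mice 2 and 3 (5.52 and 5.36 CPM) were then above the highest vehicle mouse (4.67 CPM). Group means were 2.88 ± 1.58 TPM in vehicle mice, 5.16 ± 2.26 after rosuvastatin, 4.01 ± 1.79 after GGOH and 6.37 ± 3.89 after both (SD, n = 5 each). These levels rest on 33 to 244 estimated counts per library.

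Gdf15 was 2.10-fold higher in the combination than in vehicle mice, a log2 difference of 1.07 ± 0.35 (SE) with a 95% interval from 0.35 to 1.79 (edgeR adjusted p = 0.817). For the statin averaged over GGOH the log2 difference was 0.63 ± 0.24 (edgeR adjusted p = 0.327). Rosuvastatin alone differed from vehicle by 0.69 ± 0.35 and GGOH alone by 0.49 ± 0.35 on the log2 scale, with edgeR adjusted p of 0.973 and 1.000. The interaction was -0.11 ± 0.48 (edgeR adjusted p = 0.999), with a 95% interval from -1.12 to 0.90. Without vehicle mouse 1 and rosuvastatin mouse 3 the combination differed from vehicle by 1.18 (edgeR adjusted p = 0.242), and without combination mice 2 and 3 by 1.36 (edgeR adjusted p = 0.999). The Gdf15 difference was above 0 under every setting tried in all comparisons but the interaction.

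Lect2, a leukocyte chemotactic factor that binds the receptor Met and impairs insulin signalling in muscle, was at 218, 306, 299.8, 347 and 379.6 TPM in vehicle mice 1 to 5. With rosuvastatin it was 331, 256, 213, 318 and 319.8 TPM, and with GGOH 217, 341, 427, 390.3 and 320.1 TPM. In the combination it was 235, 210.2, 225, 346 and 201 TPM. Combination mouse 4 lay with the higher mice of the other groups, and the 4 others formed the low end of the whole series together with vehicle mouse 1, rosuvastatin mouse 3 and GGOH mouse 1. The log2 difference for the statin averaged over GGOH was -0.47 ± 0.21, with a 95% interval from -0.90 to -0.03 (edgeR adjusted p = 0.334). The combination differed from vehicle by -0.59 ± 0.30 and from GGOH by -0.52 ± 0.30 on the log2 scale (edgeR adjusted p = 0.817 and 0.389), the former at -0.35 on log2(TPM + 1). On log2(TPM + 1) the statin difference was -0.29 (limma adjusted p = 0.643). Without vehicle mouse 1 it was -0.56 on counts (edgeR adjusted p = 0.0878), the lowest adjusted p of any member under any setting.

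Met itself was at 9.42 ± 4.16 TPM in vehicle mice, 8.39 ± 2.63 after rosuvastatin, 8.73 ± 0.315 after GGOH and 7.81 ± 1.93 after both (SD, n = 5 each). Its log2 difference for the statin averaged over GGOH was -0.33 ± 0.10 (edgeR adjusted p = 0.327). Ranges overlapped between all groups.

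Ahsg and Fetub encode fetuin-A and fetuin-B, plasma proteins of the cystatin superfamily. Fetuin-A binds the insulin receptor and inhibits its kinase, and fetuin-B is a protease inhibitor needed for fertilisation that has also been tied to glucose intolerance. The genes lie side by side on the same strand of mouse chromosome 16 (GENCODE M21, GRCm38): Ahsg at chr16:22891277-22899449 and Fetub at chr16:22918334-22939778, with 18884 bases and 0 annotated genes between them. The antisense gene Gm30505 overlaps Ahsg. The bases before their RefSeq starts (GRCm38.p6) are shown because the levels of these neighbours moved together from mouse to mouse. The capitals mark the longest run of letters that both windows share on the plus strand. For Ahsg the 250 bases before the start are given (chr16:22891765-22892014), and for Fetub the bases from 250 to 33 before it (chr16:22918132-22918349).

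Ahsg: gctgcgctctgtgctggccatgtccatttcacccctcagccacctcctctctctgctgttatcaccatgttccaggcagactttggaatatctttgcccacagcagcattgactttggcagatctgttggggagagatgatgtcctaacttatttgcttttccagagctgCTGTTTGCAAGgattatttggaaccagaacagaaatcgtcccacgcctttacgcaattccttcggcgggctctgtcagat

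Fetub: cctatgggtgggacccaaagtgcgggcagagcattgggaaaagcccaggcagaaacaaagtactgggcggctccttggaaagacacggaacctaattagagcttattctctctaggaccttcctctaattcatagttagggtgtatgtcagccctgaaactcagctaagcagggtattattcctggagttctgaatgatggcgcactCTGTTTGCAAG

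The shared run CTGTTTGCAAG lies at -80 to -70 in Ahsg and at -43 to -33 in Fetub, counted from the RefSeq start. It was sought after the 2 genes had been seen to covary. On either strand it occurs in 13 of the 32851 upstream windows of 250 bases in the RefSeq table (0.0396%), a description of these letters and not of a bound site. GENCODE starts its first Fetub exon inside the last part of the Fetub window, at chr16:22918334. The shared run comes after that start, so it lies inside the annotated Fetub gene. The whole Ahsg window also lies inside the GENCODE gene Ahsg, which starts at chr16:22891277. Neither run is thus upstream of its GENCODE gene.

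Ahsg was at 8374, 2452, 3731, 2908 and 2353 TPM in vehicle mice 1 to 5 and at 4431, 3044, 9269, 2784 and 3459 TPM with rosuvastatin. With GGOH it was 3528, 3310.1, 3588, 3709 and 2867 TPM, and in the combination 3926, 1857, 2646, 3627 and 5365 TPM. Fetub was at 302, 88.9, 183, 93.7 and 76.1 TPM with vehicle and at 150.4, 125, 269.8, 112 and 105 TPM with rosuvastatin. Vehicle mouse 1 and rosuvastatin mouse 3 were the highest of all 20 mice for both genes, at more than double the median of their groups. With GGOH Fetub ran only from 101 to 129 TPM and in the combination from 101 to 165 TPM.

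Neither fetuin gene differed between groups beyond the spread of the mice. For rosuvastatin against vehicle the log2 difference was 0.10 ± 0.28 for Ahsg, with a 95% interval from -0.48 to 0.68, and 0.01 ± 0.21 for Fetub, with an interval from -0.44 to 0.45. Over the 8 comparisons the log2 differences ran from -0.28 to 0.10 for Ahsg and from -0.27 to 0.20 for Fetub, and every interval included 0. In Ahsg each of the 8 comparisons changed sign under at least 1 alternative setting, so no direction is given.

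Across mice the pair covaried. With each group mean subtracted, log2 CPM of Ahsg and Fetub correlated with Pearson's r = 0.81 and Spearman's coefficient = 0.75 over 20 mice, and log2(TPM + 0.1) with r = 0.90 and Spearman's coefficient = 0.87. Without vehicle mouse 1 and rosuvastatin mouse 3, r was 0.67 on CPM and 0.73 on TPM. Such an r was not particular to this pair. On CPM 0.508% of all genes had r above 0.8 with Ahsg and 0.258% with Fetub. Neither gene was among the 3 most like the other. On TPM the median r over all genes was 0.41 with Ahsg and 0.51 with Fetub. The points share libraries, their depth and their scaling factor, and no p is given. The ratio of Ahsg to Fetub was 27.9 ± 4.62 TPM per TPM over the 20 mice (SD), from 18.3 to 34.8. Its group means were 27.6 ± 4.31 in vehicle mice, 29.2 ± 4.55 after rosuvastatin, 29.6 ± 3.9 after GGOH and 25.2 ± 5.63 after both. The ratio thus spanned a narrower range than either gene, whose highest mouse was 4.99 times the lowest for Ahsg and 3.97 times for Fetub. The gene that follows Fetub on the chromosome is Hrg (chr16:22951072-22961656), encoding the histidine-rich glycoprotein of plasma, another cystatin superfamily member. Hrg was among the 3 genes most like Fetub, with r = 0.92 on CPM.

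**Figure D3:**
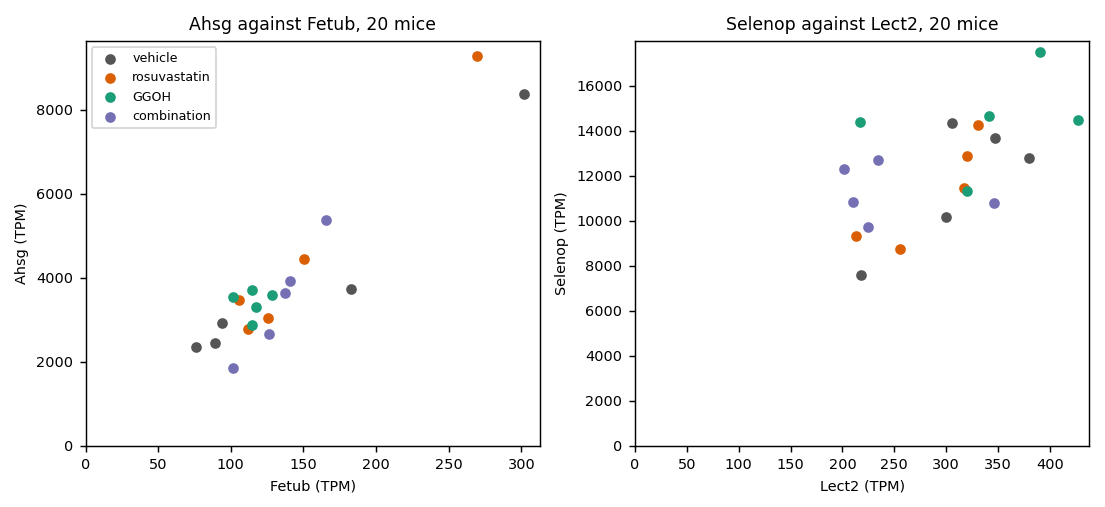
TPM of Ahsg against Fetub (left) and of Selenop against Lect2 (right), 1 point per mouse, coloured by treatment group, on linear axes from 0. Ahsg was higher in mice with more Fetub, with vehicle mouse 1 and rosuvastatin mouse 3 at the top right, while Selenop and Lect2 scattered more widely.

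Inhbe encodes the activin E subunit, a liver-made TGF-beta family ligand that restrains lipolysis in fat. It lies at chr10:127348857-127354411 on the minus strand, fully overlapped by the antisense gene Gm47200. Inhbe was at 31.1, 17.6, 16.2, 14.4 and 12.2 TPM in vehicle mice 1 to 5 and at 16.8, 12.5, 32.6, 14.7 and 17.4 TPM with rosuvastatin. With GGOH it was 16.4, 24.8, 25.8, 23.2 and 21.4 TPM, and in the combination 14.1, 15.2, 24.9, 19.3 and 17.5 TPM. Vehicle mouse 1 and rosuvastatin mouse 3 were the highest livers, 4 GGOH mice and combination mouse 3 came next, and all groups overlapped. The order was not the same in CPM, where vehicle mouse 2 (126 CPM) was above GGOH mouse 2 (122 CPM) and GGOH mouse 5 (117 CPM). Vehicle mouse 1 (111 CPM) was below each of these in CPM. The combination differed from GGOH by -0.36 ± 0.18 on the log2 scale, with a 95% interval from -0.73 to 0.01 (edgeR adjusted p = 0.364). The statin averaged over GGOH gave -0.26 ± 0.13 (edgeR adjusted p = 0.349), but -0.13 on log2(TPM + 1) and on total counts, and GGOH against vehicle gave 0.26 ± 0.18 (edgeR adjusted p = 1.000).

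Angptl8 encodes an insulin-induced protein that takes part in the inhibition of lipoprotein lipase after a meal. It lies at chr9:21835510-21837347 on the plus strand, inside Dock6, which is transcribed from the other strand. Whether the authors' counting used strand is not given in the sources used here, so reads of overlapping genes may not be told apart for Angptl8, Inhbe, Ahsg, Selenop and Dpp4. Angptl8 was at 72.9, 40.1, 39.1, 41.6 and 37.9 TPM in vehicle mice 1 to 5. With rosuvastatin it was 39.6, 58.2, 23.7, 28.6 and 34.7 TPM, with GGOH 40.3, 40.3, 51.6, 46.4 and 26.0 TPM, and in the combination 50.1, 37.3, 22.1, 48.7 and 84.0 TPM. In TPM the combination held both the lowest and the highest liver of the series, and the other groups lay between them. In CPM the lowest liver was rosuvastatin mouse 3 (13.1 CPM), below combination mouse 3 (14.6 CPM). Rosuvastatin differed from vehicle by -0.44 ± 0.31 and the combination from rosuvastatin by 0.39 ± 0.31 on the log2 scale (edgeR adjusted p = 0.973 and 1.000). The first value was -0.76 without rosuvastatin mouse 2 and -0.25 without rosuvastatin mouse 3. The second was 0.71 and 0.21 without those mice and 0.19 without combination mouse 5. The interaction was 0.61 ± 0.44, with a 95% interval from -0.31 to 1.52 (edgeR adjusted p = 0.999).

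Inhbe and Angptl8 were the 2 members with the letters TGATGCAA before a RefSeq start. These letters form the C/EBP-ATF response element that stress-responsive genes carry, and they are shown because that stress pathway is known to induce Gdf15 and Fgf21. The element occurs on either strand in 260 of 32851 windows (0.791%). The capitals mark it in 30 bases from each gene, at chr10:127352011-127352040 on the minus strand for Inhbe and at chr9:21835369-21835398 on the plus strand for Angptl8.

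Inhbe: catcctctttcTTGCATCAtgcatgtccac

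Angptl8: agccatcagtcTGATGCAAtggctgagcct

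In Inhbe it reads on the opposite strand to the gene, at -181 to -174, and in Angptl8 on the gene's strand at -130 to -123. The Inhbe bases lie inside the longer GENCODE gene, and those of Angptl8 lie before its GENCODE start. Among the 14 windows of the 9 members, the TATA box letters TATAAA were found in Dpp4, Fetub, Rbp4 and Selenop (12.4% of all windows), CCAAT in Fetub, Gdf15, Inhbe and Rbp4 (33.8%), and the FOXA letters TGTTTAC in Fetub, Rbp4 and Selenop (3.17%), each on either strand. A match describes letters only.

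Selenop, made mostly by hepatocytes, carries selenium to other tissues and has been tied to insulin resistance. It was at 7574, 14321, 10167, 13655 and 12779 TPM in vehicle mice 1 to 5 and ran from 8754 to 14237 TPM with rosuvastatin, from 11299 to 17501 TPM with GGOH and from 9730.1 to 12691 TPM in the combination. In TPM vehicle mouse 1 was the lowest liver and GGOH mouse 4 the highest, and the ranges overlapped. The statin averaged over GGOH gave a log2 difference of -0.38 ± 0.22 with a 95% interval from -0.84 to 0.07 (edgeR adjusted p = 0.378). It was -0.19 on log2(TPM + 1) and -0.22 on total counts.

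Rbp4 encodes the retinol carrier of plasma, a protein raised in insulin resistance. It ran from 2767 to 4307 TPM with vehicle, from 4106 to 4708 with rosuvastatin, from 3933 to 5104 with GGOH and from 2524 to 5582 in the combination. In TPM combination mouse 2 was the lowest liver and combination mouse 5 the highest. Its 8 fitted log2 differences lay between -0.19 and 0.12, and each changed sign under at least 1 alternative setting. Against vehicle, rosuvastatin gave 0.01 ± 0.24 with a 95% interval from -0.49 to 0.52.

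Dpp4 encodes dipeptidyl peptidase 4, a membrane enzyme that is shed into plasma and inactivates the incretin hormones, and it is also made by T cells, biliary and endothelial cells. It ran from 15.6 to 29.1 TPM with vehicle, from 14.7 to 24.9 with rosuvastatin, from 13.8 to 27.8 with GGOH and from 15.4 to 25.2 in the combination. The summed level of 9 T and NK cell markers ran from 2.12 to 15.1 TPM over the series. That of 7 cholangiocyte (biliary) markers ran from 15.7 to 169 TPM, and that of 8 sinusoidal endothelium markers from 91.7 to 155 TPM. The part of these cells in Dpp4 was not tested. On TMM-scaled counts Dpp4 was the steadiest member, from 74.5 CPM in rosuvastatin mouse 1 to 115 CPM in GGOH mouse 3. The statin averaged over GGOH gave -0.16 ± 0.08 with a 95% interval from -0.33 to 0.02 (edgeR adjusted p = 0.366), but -0.02 on log2(TPM + 1) and -0.04 on total counts.

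How variable a member looked between mice of a group depended on the scale. The within-group SD of log2 CPM was 0.14 for Dpp4, at percentile 0.788 of the 10655 genes whose average log2 CPM was 1 or more, but its SD of log2 TPM was 0.36, at percentile 27.9. Selenop went the other way, with an SD of 0.51 on log2 CPM (percentile 78.6) and 0.28 on log2 TPM (percentile 12). Lect2 stood at percentile 79.8 on CPM and 19.5 on TPM, and Rbp4 at 54.9 and 10.5. Gdf15 was among the more variable genes on both scales, at percentiles 86.2 and 87.7. The TMM factors behind the CPM scale ran from 0.761 to 1.25 between libraries, highest in vehicle mouse 1, and the part of scaling in these spreads was not tested.

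The scale also set which members moved together. Over the 36 pairs of members, 5 had r above 0.5 on log2 CPM and 10 on log2 TPM, and the sign of r differed between the scales in 9. Lect2 and Selenop had r = 0.83 and Spearman's coefficient = 0.76 on CPM but r = 0.51 on TPM. Rbp4 and Selenop had r = 0.70 on CPM and 0.09 on TPM. Inhbe and Fetub had r = 0.33 on CPM and 0.75 on TPM, and without vehicle mouse 1 and rosuvastatin mouse 3 these became -0.07 and 0.27. Of the 36 pairs, Ahsg with Fetub was the one whose r was above 0.6 on both scales both with and without those mice. Leaving them out raised r on CPM from 0.23 to 0.83 for Ahsg with Rbp4 and from 0.23 to 0.69 for Ahsg with Angptl8.

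**Figure D4:**
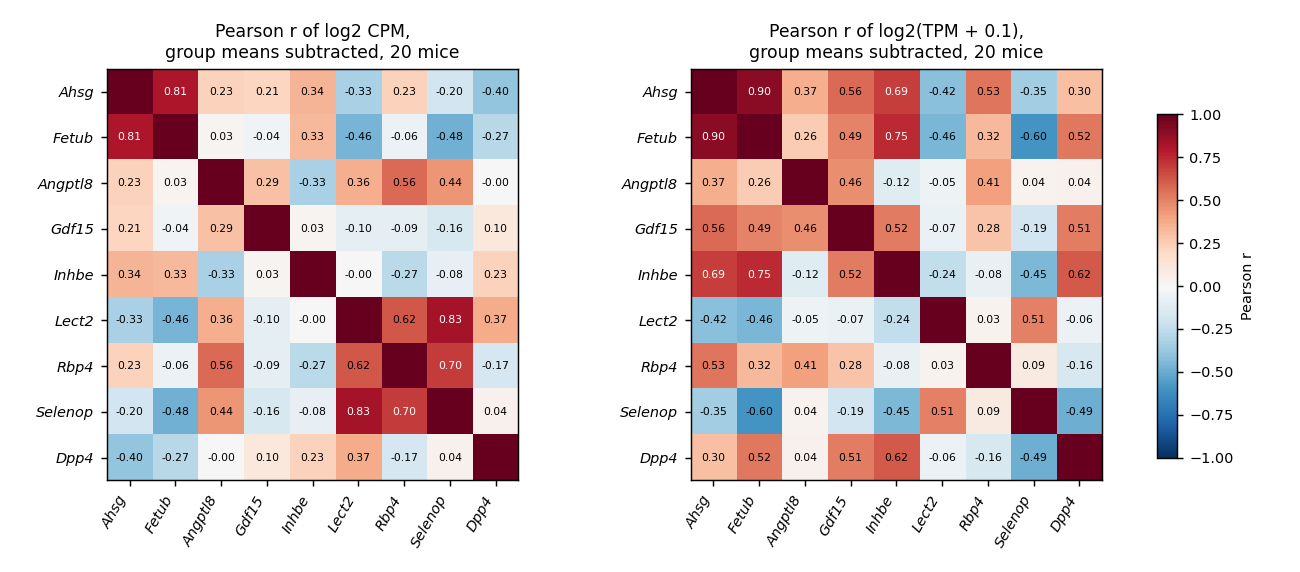
Pearson's r between each pair of the 9 hepatokine genes over 20 mice after subtraction of group means, on log2 CPM (left) and log2(TPM + 0.1) (right). The Ahsg and Fetub cell is dark red on both scales (0.81 and 0.90), and in the block of Lect2, Rbp4 and Selenop all 3 pairs are red on CPM, but on TPM only Lect2 with Selenop is (0.51).

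The genes most like each member were taken by the same r on log2 CPM, over 20 mice that share libraries and scaling. For Inhbe they were Utp14b (r = 0.89), Hmgcs1 (r = 0.87) and the ascorbate transporter Slc23a1 (r = 0.81), where 0.0313% of all genes had r above 0.8 with it. For Fetub they were Vtn (r = 0.94), encoding vitronectin, with Hrg and Gfra1, and for Ahsg they were Nsun2 (r = 0.93), Prkar1a (r = 0.91) and Ldha (r = 0.89). The closest to Angptl8 was Jchain (r = 0.80) and to Dpp4 the carboxylesterase Ces1g (r = 0.76). Selenop had Tmco1 and the selenoprotein gene Selenot (r = 0.98 each), but 10.3% of all genes had r above 0.8 with Selenop, and 3.82% with Rbp4, whose closest was Pxmp2 (r = 0.97). The closest gene to Lect2 was Mmd, at r = 0.93 on CPM and 0.36 on TPM.

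Hmgcs1 encodes the enzyme just before HMG-CoA reductase and is a target of the sterol-sensing factor SREBP2. Its median was 172 CPM with vehicle, 400.1 with rosuvastatin, 209 with GGOH and 291 in the combination, and that of Inhbe was 101, 80.6, 122 and 87.2 CPM. The group medians of the 2 genes thus did not follow the same order, and the likeness is between mice within groups. Spearman's coefficient was 0.79, and Pearson's r was 0.83 without the 2 mice farthest from the median of Inhbe and 0.81 on TPM. A list of 19 cholesterol synthesis genes, Hmgcs1 itself among them, was added after this was seen. All 19 had a positive r with Inhbe, 16 above 0.5, with a median of 0.72 against -0.00 over all genes on CPM. How far the 19 moved with each other was not tested, so they do not count as separate agreements. On TPM the medians were 0.75 and 0.49, so most genes had a positive r with Inhbe on that scale. On CPM the same list had a median r of 0.48 with Fetub and 0.38 with Ahsg, against -0.01 and -0.04 over all genes. On TPM these were 0.61 and 0.57, against 0.51 and 0.41. With Angptl8 the list's median was -0.25 on CPM and -0.18 on TPM, and with Gdf15 it changed sign, from -0.21 to 0.13.

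**Figure D5:**
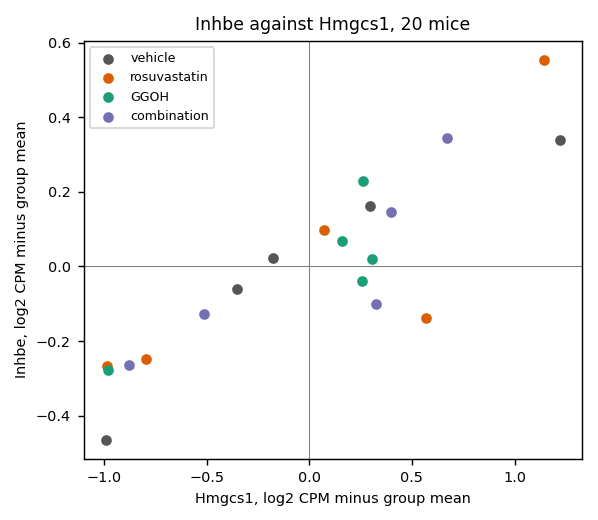
Inhbe against Hmgcs1 in log2 CPM with the group mean subtracted from each, 1 point per mouse, coloured by treatment group. Mice of all 4 groups lie along a rising band (r = 0.87, 20 mice).

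Of the genes in 10 related lists, 0 were called by edgeR in any of the 8 comparisons, where 0% of all genes were called in 7 and 0.00782% in the other. Counts below are for the combination against vehicle, with the range of each list's median log2 difference over the 8 comparisons. In the integrated stress response list, which holds inducers of Gdf15, 8 of 12 tested genes were higher and 4 lower in the combination than with vehicle, with a median log2 difference of 0.17 against 0.01 over all genes. In the combination against GGOH 5 were higher and 7 lower (median -0.03), and in the interaction 3 were positive and 9 negative (median -0.15), the lowest of the 8 medians. Its transcription factors Atf4 and Ddit3 differed by 0.16 ± 0.19 and 0.32 ± 0.30 (edgeR adjusted p = 0.844 and 0.822). In the insulin-driven lipogenesis list 9 of 13 genes were higher and 4 lower, with a median of 0.48 (range -0.10 to 0.48), and its carbohydrate-sensing factor Mlxipl differed by 0.79 ± 0.34 (edgeR adjusted p = 0.817), with Srebf1 at -0.30 ± 0.38 (edgeR adjusted p = 0.848).

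For the triglyceride lipase list 6 of 13 genes were higher in the combination than with vehicle and 7 lower (median -0.03, range -0.12 to -0.01), with Lpl, encoding lipoprotein lipase, at -0.03 ± 0.27 (edgeR adjusted p = 0.979). For activin and TGF-beta family signalling 10 of 14 were higher and 4 lower (median 0.09, range -0.12 to 0.17), and Inhbc, the liver activin C subunit, was at 0.01 ± 0.21 (edgeR adjusted p = 0.989). For the cystatin superfamily and insulin receptor list 3 of 10 were higher and 7 lower (median -0.11, range -0.11 to 0.15), with Insr at -0.12 ± 0.19 and Hrg at -0.12 ± 0.23 (edgeR adjusted p = 0.870 and 0.887). For selenoproteins and their synthesis 7 of 22 were higher and 15 lower (median -0.13, range -0.13 to 0.00), with the selenium-activating enzyme gene Sephs2 at -0.14 ± 0.21 (edgeR adjusted p = 0.868).

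For retinol carriage 4 of 12 were higher and 8 lower (median -0.15, range -0.15 to 0.01), with Ttr, the plasma partner of RBP4, at -0.15 ± 0.22 (edgeR adjusted p = 0.867). For the list of peptidases and LECT2 receptors 5 of 10 were higher and 5 lower (median -0.02, range -0.13 to 0.14), and for other liver hormones 8 of 21 were higher and 13 lower (median -0.07, range -0.19 to 0.14). In that last list Fgf21 was at 8.95 ± 9.44 TPM in vehicle mice, 15.9 ± 11.6 after rosuvastatin, 18.3 ± 5.38 after GGOH and 12.5 ± 4.38 after both (SD, n = 5 each). Against vehicle its log2 difference was 0.74 ± 0.42 for rosuvastatin, 1.18 ± 0.42 for GGOH and 0.59 ± 0.42 for the combination (edgeR adjusted p = 0.973, 1.000 and 0.817), and the interaction was -1.33 ± 0.59 (edgeR adjusted p = 0.999). For hepatocyte regulators 9 of 14 were higher and 5 lower (median 0.07), but against vehicle 10 of 14 were lower with rosuvastatin (median -0.16) and 9 of 14 with GGOH (median -0.15), and the median was 0.32 for the combination against GGOH. In the combination against vehicle Hnf4a was at 0.18 ± 0.24 (edgeR adjusted p = 0.857).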

How the data were processed

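Per the labels' protocols, liver RNA was purified with RNeasy, poly(A) RNA was made into TruSeq libraries and read as paired ends on a NovaSeq. The submitters' processing notes name kallisto 0.44.0, bcl2fastq 2.19, DESeq2 and the build GRCm38 (mm10). The annotation and strand setting are not given in the sources used here. The authors deposited estimated counts per gene and TPM values per gene. One row without a gene name (0.00801 to 0.0157% of counts) was left out.

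Deposited estimated counts were rounded. Tests were edgeR's quasi-likelihood F tests (version 4.0.16, R 4.3.3, two-sided, TMM, default low-count filter, 4 group means over 20 libraries, 16 residual degrees of freedom before pooling). Benjamini-Hochberg adjustment ran over 12789 genes, with 0.05 as threshold. Values after ± on the log2 scale are SEs. Groups came from the labels, and every deposited sample column was used. The test was checked on simulated counts with 200 changed genes. Correlations used log2 CPM (prior count 2) or log2(TPM + 0.1), with group means subtracted. Alternatives were RLE, DESeq2 1.42.0, other filters, limma 3.58.1 on TPM, a replicate block, only the groups compared, each library left out, and, added after seeing the data, no TMM and 2 pairs of libraries left out. Named genes were all members, the first 2 tested genes of each related list and the 3 genes most like each member whose average log2 CPM was 1 or more. Met, Fgf21, Hrg and Hmgcs1 fall under that rule. A few genes that fall under it are not reported here. Cyp2b10, the cholesterol synthesis list and the shared promoter run were chosen after values were seen. The members and lists were chosen with earlier results of these data known. Gene positions are from GENCODE M21. Promoter windows are from a RefSeq table (GRCm38.p6), in which 9 of 9 members matched with 14 windows.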

Additional observations from a re-analysis of the deposited data

Results flagged for a closer look

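In 7 of 36 sets of 5 mice (9 genes in 4 groups), the highest mouse stood apart from its group by Dixon's test at the 95% level, where chance alone gives about 1 in 20, or 1.8 sets. The sets are not independent, since genes share mice. Vehicle mouse 1 stood apart with Ahsg at 8374 TPM (next highest 3731), Angptl8 at 72.9 TPM (next 41.6) and Inhbe at 31.1 TPM (next 17.6). Rosuvastatin mouse 3 stood apart with Ahsg at 9269 TPM (next 4431), Fetub at 269.8 TPM (next 150.4) and Inhbe at 32.6 TPM (next 17.4). Combination mouse 4 stood apart with Lect2 at 346 TPM (next 235). So 6 of the 7 came from 2 livers. The test was run on TPM only. In CPM vehicle mouse 1 was not the highest of its group for Angptl8 (35.8 CPM, with 41.3 CPM in vehicle mouse 5). Nor was it for Inhbe (111 CPM, with 126 CPM in vehicle mouse 2). In the other flagged sets the same mouse was the highest in CPM too. The TMM factors of the 2 livers, which enter CPM and not TPM, were 1.25 and 1.17, where the median library had 1.00. Rosuvastatin mouse 5, which did not stand apart for any member, had 1.22. The depths of the 2 livers were 16776626 and 15099884 counts, and why these livers stood apart was not tested.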

How the results depend on the processing

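With 5 mice a group and a common biological coefficient of variation of 0.300, intervals of single members were wide, and a p that misses the threshold does not show equal levels. Over 2205 member values from the alternatives, 0 calls were made. Of these values 1 had no adjusted p and could not be called: Gdf15 under DESeq2 for the statin averaged over GGOH. The lowest adjusted p was 0.0878. Signs differed from the reported value in 156, each at a log2 difference of at most 0.29 in size: 19 of 72 without combination mice 2 and 3, 15 of 72 without vehicle mouse 1 and rosuvastatin mouse 3, 9 of 72 for each TPM fit and for total counts, 1 of 72 without a filter, 94 of 1440 with 1 library left out, and 0 with RLE, DESeq2, the stricter filter, the block or only the groups compared. With TPM and total-count scaling the median log2 difference of all genes reached 0.18 and 0.13, both for rosuvastatin against vehicle, where the main fit gave -0.02. Gdf15 in the combination against vehicle ran from 0.83 to 1.26 with 1 library left out and from 0.84 to 1.36 otherwise, with unadjusted p from 0.00121 to 0.0287. DESeq2 called 14 genes of all for the statin averaged over GGOH, 4 for rosuvastatin, the combination against vehicle and GGOH averaged, 2 for the combination against rosuvastatin and 1 for GGOH.

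Mouse numbers showed no clear pairing of the samples: mean correlations of same-numbered mice ran from -0.12 to 0.14, and 5 of 20 correlated best with their own number. The highest correlation of a single pair was 0.51, among mice numbered 3. The check had no reference value and the labels do not say what the numbers mean, so it cannot decide whether mice were paired. With the replicate block 0 of 9 members were called in each comparison, Gdf15 in the combination against vehicle was 0.98 (edgeR adjusted p = 0.858), and Cyp2b10 was no longer called (0 genes).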
